A study of Mus musculus with 8 samples.

Results

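Retinoid X receptor (RXR) peaks were examined at the 6 genes whose enzymes carry cytosolic reducing equivalents into mitochondria: Mdh1, Mdh2, Got1 and Got2 of the malate-aspartate shuttle, and Gpd1 and Gpd2 of the glycerol phosphate shuttle. A peak was included when its summit lay inside one of these genes or within 50 kb of it on mouse build mm10, with gene positions from RefSeq (GRCm38.p6). This rule selected 19 of the 23961 deposited peaks. The peaks came from RXR chromatin immunoprecipitation and sequencing of individual newborn hearts at postnatal day 0. The compared hearts were 2 edKO hearts, in which Rxra and Rxrb (labelled RXRab-/-) had been deleted in cardiomyocytes, and 2 wild-type (WT) hearts, with the hearts of each genotype numbered 3 and 4. Each heart had an immunoprecipitate and an input, and the labels do not name the Cre driver or the strain. The tissue was the total heart, so cells in which the receptors had not been deleted contributed to the edKO libraries, and fewer bound cells cannot be told apart from less binding per cell.

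Glycolysis makes NADH in the cytosol, but the inner mitochondrial membrane has no transporter for NADH. In the malate-aspartate shuttle, cytosolic malate dehydrogenase reduces oxaloacetate to malate, which enters the mitochondrion and is oxidised again there, and a pair of aspartate aminotransferases returns the carbon skeleton as aspartate. In the glycerol phosphate shuttle, a cytosolic dehydrogenase passes the electrons to dihydroxyacetone phosphate, and a dehydrogenase on the outer face of the inner membrane passes them on to ubiquinone. Heart muscle relies mainly on the malate-aspartate shuttle. RXR binds DNA as a partner of other nuclear receptors, many of which recognise repeats of the hexamer AGGTCA.

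No RXR peak lay near any of the 6 genes in either edKO heart, whereas 5 of the 6 genes had a region with a peak in both WT hearts: Mdh1, Got1, Got2, Gpd1 and Gpd2. Among all protein-coding genes, 0.119% and 1.52% had a peak within 50 kb in edKO replicates 3 and 4, so an edKO count of 0 is what these short lists give for nearly any gene, and 32.4% had a region shared by the WT hearts. The number of peaks within 50 kb was 0 in edKO replicate 3, 0 in edKO replicate 4, 13 in WT replicate 3 and 6 in WT replicate 4, so the genotypes did not overlap. The strongest regions lay near the start of Gpd2, where WT replicates 3 and 4 reached fold enrichments of 29.3 and 8.29, and inside Mdh1, where they reached 23.5 and 11.2. Fold enrichment is the authors' value for the summit of a peak, relative to the local background of the same heart. Mdh2 was the exception, with a weak peak in WT replicate 3 alone.

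The sequences around the starts of Gpd2, Got1 and Mdh2 are shown. The Gpd2 window held the summits of both WT hearts in the region with the highest mean fold enrichment, the Got1 window held the summit of WT replicate 4 in a shared region, and the Mdh2 window held the summit of the only peak of that gene. The Mdh1 window, which held a weak summit of WT replicate 3 alone (3.21), is not printed. Each RefSeq window (GRCm38.p6) runs 5′ to 3′ on the gene's strand from 250 bases before an annotated transcript start, with 300 bases in all. Capitals mark the bases within 10 bases of a WT summit. The Gpd2 window is the downstream one of 2 in the table, at chr2:57238132-57238431 on the plus strand. The Got1 window is at chr19:43524556-43524855 on the minus strand, and the Mdh2 window is at chr5:135778399-135778698 on the plus strand.
Gpd2: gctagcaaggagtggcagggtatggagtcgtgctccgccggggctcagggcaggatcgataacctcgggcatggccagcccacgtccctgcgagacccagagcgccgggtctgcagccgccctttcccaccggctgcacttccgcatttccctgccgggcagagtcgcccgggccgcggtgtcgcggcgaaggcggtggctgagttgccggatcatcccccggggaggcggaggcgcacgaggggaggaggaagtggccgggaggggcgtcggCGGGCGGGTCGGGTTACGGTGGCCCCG
Got1: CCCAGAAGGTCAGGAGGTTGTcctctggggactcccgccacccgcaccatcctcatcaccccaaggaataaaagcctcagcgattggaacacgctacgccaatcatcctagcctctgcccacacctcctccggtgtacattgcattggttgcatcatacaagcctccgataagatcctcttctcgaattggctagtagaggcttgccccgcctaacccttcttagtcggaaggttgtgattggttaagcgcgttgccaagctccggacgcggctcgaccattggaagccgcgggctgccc
Mdh2: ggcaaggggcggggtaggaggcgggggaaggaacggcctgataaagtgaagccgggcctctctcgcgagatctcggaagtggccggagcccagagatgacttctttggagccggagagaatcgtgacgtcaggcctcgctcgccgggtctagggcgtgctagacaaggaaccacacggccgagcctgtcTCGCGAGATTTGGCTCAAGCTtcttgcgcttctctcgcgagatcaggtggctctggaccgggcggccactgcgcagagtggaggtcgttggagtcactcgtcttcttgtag

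The whole lists differed widely in length, with 8 peaks in edKO replicate 3, 127 in edKO replicate 4, 19129 in WT replicate 3 and only 4697 in WT replicate 4. The lowest local background, recovered from the peak statistics, was 3.13 and 2.96 fragments per position in the edKO immunoprecipitates and 2.48 and 2.40 in the WT immunoprecipitates of replicates 3 and 4. These minima were taken over 8 and 127 edKO peaks and over 313 and 306 WT peaks, so they are not like measures of depth. Shared WT regions lay within 50 kb of 6 of 6 cardiomyocyte marker genes, 3 of 5 endothelial, 1 of 5 fibroblast and 3 of 5 blood and macrophage marker genes, against 32.4% of all protein-coding genes. Expression of these markers cannot be read from peaks, so these counts do not check the labelled tissue.

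The comparison of genotypes asked how much of the RXR signal at the shuttle genes was listed without Rxra and Rxrb in cardiomyocytes. The edKO hearts had 0 ± 0 peaks within 50 kb of the 6 genes and the WT hearts 9.5 ± 4.95 (SD, n = 2 each), a difference of -9.5 (exact permutation test, two-sided p = 0.333, the smallest p that 2 hearts against 2 allow). The genes with at least 1 peak numbered 0 and 0 in the edKO hearts, against 6 and 5 in WT replicates 3 and 4 (exact permutation test, two-sided p = 0.333). The share of all 21883 protein-coding genes with a peak within 50 kb was 0.119% in edKO replicate 3 and 1.52% in edKO replicate 4, with 0 of 6 members in both. This share was 64.5% in WT replicate 3, with 6 of 6 members, and 33.5% in WT replicate 4, with 5 of 6.

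Both WT hearts had peaks that overlapped by at least 1 bp within 50 kb of 5 of the 6 genes, against 32.4% of all protein-coding genes. All of these regions were close: the farthest summit lay 2773 bp outside its gene, and within 10 kb the count was still 5 of 6, against 17.5% of all protein-coding genes. The 5 genes had 6 regions, since Got1 had 2. Of all genes, 7.22% had exactly 2 regions and another 4.43% had 3 or more. In 4 of the 6 regions the summit lay inside the gene. When the overlap had to be at least 50% of both peaks, 3 of the 6 genes, Mdh1, Got1 and Gpd2, had a shared region. The share of all protein-coding genes under this stricter overlap was not computed. None of the 6 regions had a peak in an edKO heart, as was the case for 97% of all 4342 shared regions. All 6 peaks of WT replicate 4 near the genes overlapped a peak of WT replicate 3 (100%, 95% Clopper-Pearson interval 54.1 to 100%). So did 94.4% of the whole WT replicate 4 list. The interval covers counting error only and not the spread between hearts, since peaks of the same heart are not replicates. WT replicate 3 had 13 peaks here, and 7 of them lacked a partner in WT replicate 4.

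**Figure D1:**
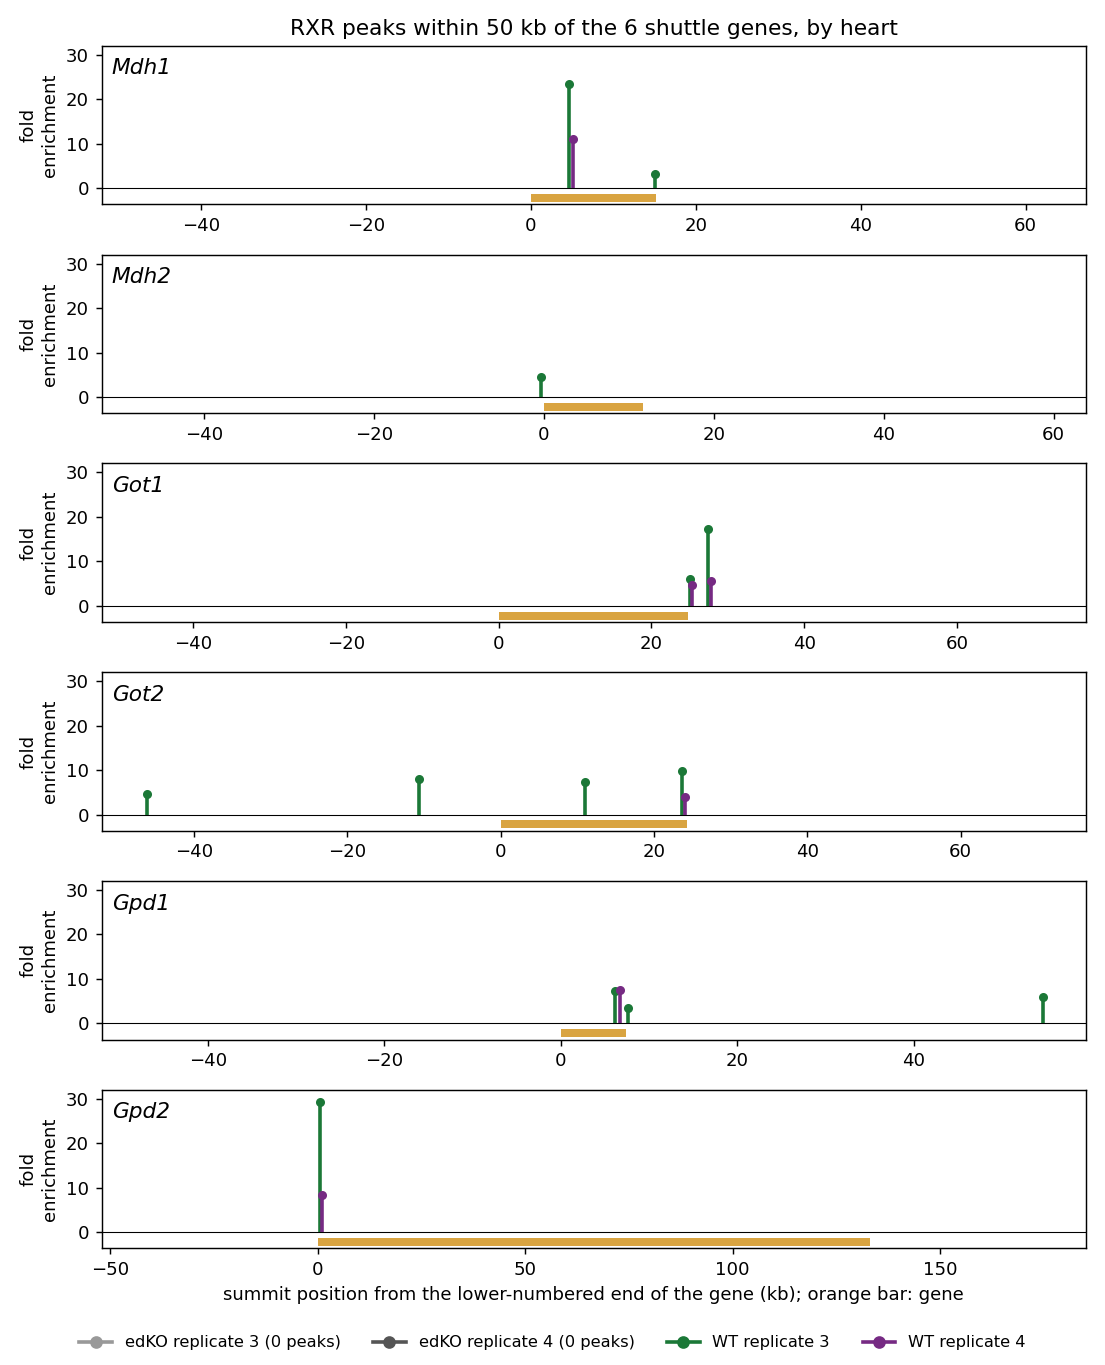
Summits of all 19 RXR peaks within 50 kb of the 6 genes, as the distance in kb from the gene's lower-numbered end (x axis; each gene has its own scale) and the authors' fold enrichment (y axis), with the orange bar marking the gene and the hearts drawn slightly apart. Peaks of both WT hearts stand together at Mdh1, Got1, Got2, Gpd1 and Gpd2, Mdh2 has a WT replicate 3 peak of 4.59, and neither edKO heart has a peak.

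The malate dehydrogenase genes differed. Mdh1 encodes the cytosolic enzyme and lies on chromosome 11 from 21556692 to 21571934. Its shared region, on chromosome 11 from 21561344 to 21561826, lay inside the gene, 10369 bp from the 5′ end, with summits 3 bp apart in the 2 hearts. WT replicate 3 had 23.5 and WT replicate 4 had 11.2 there, which exceeded 98.5% and 90.4% of the peaks in the lists of these hearts. WT replicate 3 also had a peak of 3.21 at the Mdh1 start, from 21571854 to 21572238, where the neighbouring gene Wdpcp overlaps the summit. That peak was in the weakest part of its list, with 2.57% of peaks below it, so at Mdh1 the strong signal was within the gene and not at its start.

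Mdh2 encodes the mitochondrial enzyme of the shuttle and of the tricarboxylic acid cycle, and lies on chromosome 5 from 135778649 to 135790386. Its peak in WT replicate 3, from 135778527 to 135778893, had a fold enrichment of 4.59, higher than 25.3% of the list. The summit lay 51 bp outside Mdh2 and 174 bp outside the neighbouring gene Styxl1, so it could not be assigned to one of them. WT replicate 4 had no listed peak within 50 kb, and a weak signal there below its threshold was not measured.

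The aminotransferase genes Got1 and Got2 encode the cytosolic and the mitochondrial aspartate aminotransferase. Got1 lies on chromosome 19 from 43499752 to 43524605 and had both of its regions upstream of the 5′ end. The far region, from 43527196 to 43527550, had its summit 2773 bp upstream and a fold enrichment of 17.2 in WT replicate 3, against 5.65 in WT replicate 4. The near region, from 43524596 to 43525273, was weaker, at 6.03 and 4.67 in WT replicates 3 and 4. Its summits lay 492 and 240 bp upstream in these hearts and thus 252 bp apart, whereas the summits of the other 5 regions lay between 3 and 51 bp apart.

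Got2 lies on chromosome 8 from 95864133 to 95888401. The shared region, from 95887759 to 95888563, lay at the start of the gene, with the summit inside it, 379 bp from the 5′ end. Fold enrichment reached 9.76 in WT replicate 3, but 3.87 in WT replicate 4. The WT replicate 4 value exceeded only 4.43% of its list. WT replicate 3 had 3 more peaks near Got2 with no partner in WT replicate 4. They were a peak of 7.45 inside the gene, one of 8.04 that lay 10384 bp outside Got2 but 172 bp from the amino acid transporter gene Slc38a7, and one of 4.55 that lay 45.8 kb away and nearest to Sap18b.

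Of the glycerol 3-phosphate dehydrogenase genes, Gpd1 encodes the cytosolic enzyme, which also supplies glycerol 3-phosphate for lipid synthesis, and lies on chromosome 15 from 99717587 to 99725014. Its shared region, from 99723726 to 99724851, was the widest of the 6 at 1126 bp, and its summit lay inside the gene, 6354 bp from the lower-numbered end. The hearts were close in fold enrichment here, at 7.36 in WT replicate 3 and at 7.59 in WT replicate 4. WT replicate 3 had a further peak of 3.56 that lay 402 bp outside Gpd1 and 202 bp from Cox14, and one of 6.03 inside the ceramide synthase gene Cers5, 47.5 kb away.

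Gpd2 encodes the mitochondrial enzyme that feeds electrons to ubiquinone. It is the longest member, at 133.0 kb on chromosome 2 from 57237678 to 57370719, yet its only peaks lay at one place, 750 and 737 bp from the 5′ end in WT replicates 3 and 4. The region, from 57238100 to 57238741, was the strongest of the 6 in WT replicate 3, at 29.3, and stood at 8.29 in WT replicate 4. Both hearts' peaks covered all 300 bases of the downstream promoter window printed above, with summits at bases 297 and 284 of it, and neither reached the upstream window of the gene.

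Averaged over the WT hearts, the fold enrichment was 18.8 ± 14.8 at Gpd2, 17.4 ± 8.75 at Mdh1, 11.4 ± 8.18 at the far Got1 region, 7.48 ± 0.159 at Gpd1, 6.82 ± 4.16 at Got2 and 5.35 ± 0.958 at the near Got1 region (SD, n = 2 each). Each neighbouring pair in this order differed by less than the larger of its 2 SDs. The order also changed with the heart: Gpd2 was highest in WT replicate 3 and Mdh1 in WT replicate 4, and Got2 was lowest in WT replicate 4. Over all 4342 shared regions the median of this mean was 7.81, and 3 of the 6 regions lay above it. The Gpd2 region ranked 244 and the Mdh1 region 315 of the 4342. Taking the strongest region of each gene, the 5 genes had a median of 11.4, against 8.67 for the 7095 protein-coding genes with a shared region.

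**Figure D2:**
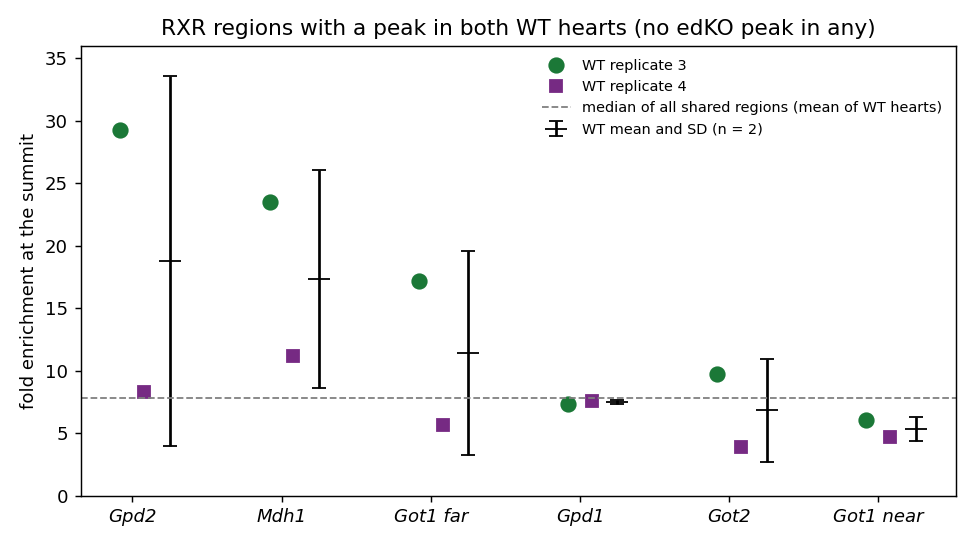
The authors' fold enrichment at the summit (y axis) in the 6 shared regions, ordered by the WT mean, with each WT heart as a symbol, the WT mean and SD (n = 2) as bars, and the median over all shared regions, 7.81, as the dashed line. WT replicate 3 is above WT replicate 4 in 5 of the 6 regions, and at Gpd1 the hearts are at 7.36 and 7.59.

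A fold enrichment depends on the fragments at the summit and on the local background, which the peak caller takes from the input and does not let fall below a genome-wide level. Both were recovered for each member peak. The Gpd2 summit had 101 fragments (95% Poisson interval 82.3 to 122.7) in WT replicate 3, against 59 (44.9 to 76.1) in WT replicate 4. The local background there was 2.48 and 6.21 fragments per position in these hearts, so the ratio of WT replicate 3 to WT replicate 4 was 1.71 in fragments and 3.53 in fold enrichment. The 3.53 exceeded the ratio at 98.1% of all shared regions, whose median ratio was 1.49. At Gpd1 the opposite held: 54 fragments (40.6 to 70.5) over a background of 6.47 in WT replicate 3, and 25 (16.2 to 36.9) over 2.40 in WT replicate 4, gave nearly the same fold enrichment. Because PCR copies may be among the fragments, these intervals cover counting error only.

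At Mdh1 the summits had 81 fragments (64.3 to 100.7) in WT replicate 3 and 41 (29.4 to 55.6) in WT replicate 4. The far Got1 region had 59 (44.9 to 76.1) and 20 (12.2 to 30.9) in the same hearts. Got2 had 33 (22.7 to 46.3) and 19 (11.4 to 29.7), and the near Got1 region 20 (12.2 to 30.9) and 15 (8.4 to 24.7). Fragments were thus more numerous in WT replicate 3 in all 6 regions, and the intervals of the hearts did not overlap in 4 of them. No fragment count here was scaled for the depth of its library, and the part of depth in these differences was not tested. The fewest fragments of any listed peak were 24 in edKO replicate 3 and 17 in edKO replicate 4. In 3 regions, at Mdh1, Gpd1 and Gpd2, both WT hearts had more than 24 fragments, and in 5 regions both had more than 17. Only the near Got1 region did not. Fragments were not recovered for all shared regions, so none of these counts of regions has a share over all shared regions beside it. A site also has to be wide enough to be listed (the shortest peak was 200 bp in every list), so the signal at these sites in the edKO hearts could not be bounded.

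**Figure D3:**
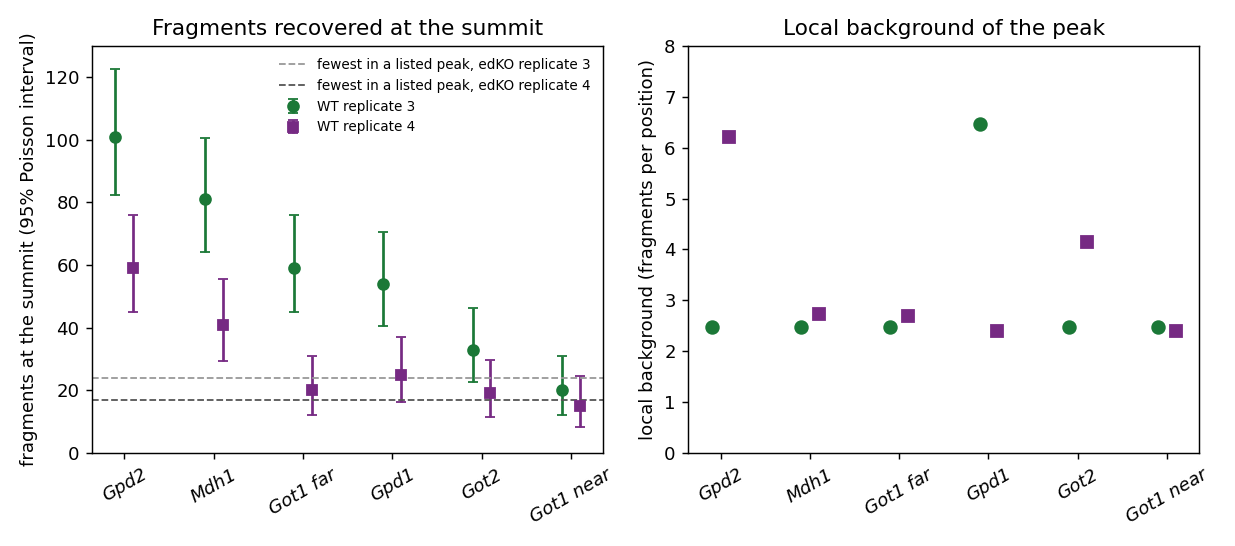
Fragments at the summit (left, with 95% Poisson intervals) and local background in fragments per position (right) in the 6 shared regions for each WT heart, with dashed lines at the fewest fragments of a peak listed in edKO replicate 3, 24, and edKO replicate 4, 17. Fragments are not scaled for library depth. WT replicate 3 has more fragments in every region, and the background stands apart between the hearts at Gpd2 (2.48 and 6.21) and Gpd1 (6.47 and 2.40).

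The promoter table held 6 windows of the members, for Mdh1, Mdh2, Got1, Got2 and, with 2 windows, Gpd2; Gpd1 had none. A summit of WT replicate 3 lay in 3 of the 6, at Mdh1, Mdh2 and Gpd2, and one of WT replicate 4 in 2, at Got1 and Gpd2. Of all 32851 windows, 10.2% and 3.18% held a summit of these hearts. The GC content of the printed windows was 72.7% at Gpd2, 57.3% at Got1 and 62.7% at Mdh2, with a median of 52.7% over all windows. The windows were searched on both strands for AGGTCA without a mismatch and for its direct repeats with 0 to 5 free bases between the copies, from AGGTCAAGGTCA through AGGTCANAGGTCA to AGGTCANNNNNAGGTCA, with at most 2 mismatches. AGGTCA was found at Got1, at bases 7 to 12, and on the reverse strand at Got2, and 16.3% of all windows hold it. The match at Got1 was also the first copy of a repeat with 2 free bases and 2 mismatches, aggtcaggaggttg at bases 7 to 20 (searched as AGGTCANNAGGTCA, found in 2.99% of all windows). It lies across base 11, where WT replicate 4 had the summit of a weak peak (4.67, higher than 17.7% of its list). The WT replicate 3 summit of the same region lay 252 bp from it and outside the window. No other repeat was found in the 6 windows, while the 6 kinds of repeat were each found in 2.79 to 3.86% of all windows. The shared regions at Mdh1, Got1 (far), Got2 and Gpd1 had the summits of both WT hearts outside these windows. The sequence under any summit outside the windows was not used here.

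Genes that work beside the shuttle enzymes were also near shared WT regions, in 23 of 29 cases within 50 kb and 16 of 29 within 10 kb, against 32.4% and 17.5% of all protein-coding genes. None of the 29 had a peak in edKO replicate 3 within 50 kb, and 1 had one in edKO replicate 4. The shares of all protein-coding genes were 0.119% and 1.52% in these hearts, so counts this low hold for nearly any list. All 3 mitochondrial carriers of the malate-aspartate shuttle had a region. The aspartate-glutamate carrier genes Slc25a12 (fold enrichments of 12.6 and 7.99 in WT replicates 3 and 4) and Slc25a13 (10.2 and 6.71) had theirs inside the gene. The region counted for the oxoglutarate-malate carrier gene Slc25a11 lay 40.5 kb away and inside Camta2. Among the paralogs of the enzymes 2 of 3 had a region. That of Gpd1l (12.9 and 7.59) lay 35 bp outside the gene and that of Got1l1 (8.90 and 6.71) 36.5 kb outside and inside Eif4ebp1.

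Of the 6 genes that handle glutamate and aspartate, 5 had a region. The strongest was near the glutamate carrier gene Slc25a22 (19.9 and 23.0 in WT replicates 3 and 4), but 29.5 kb outside it and inside Cd151. Of 5 genes of lactate, cytosolic NADH or cytosolic malate metabolism 4 had a region. Gapdh, the glycolytic enzyme that makes the NADH (21.5 and 11.7), led, followed by Me1, the cytosolic malic enzyme (14.6 and 8.17). Of 6 genes of glycerol 3-phosphate formation and glycerolipid synthesis 4 had one, led by the acyltransferase genes Gpat3 (16.4 and 8.54) and Gpam (13.9 and 5.61), both inside the gene. Of 6 genes at or beside the steps of mitochondrial malate, oxaloacetate and ubiquinone 5 had one. Etfdh, which like Gpd2 passes electrons to ubiquinone, led with a region inside the gene (19.6 and 9.29), followed by Ogdh, whose region lay 45.8 kb away and inside Zmiz2 (15.9 and 7.26). When only the gene nearest to the summit was counted, 12 of the 29 genes and 5 of the 6 shuttle enzymes had a region. The share of all protein-coding genes under this rule was not computed, so these counts have no background beside them.

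**Figure D4:**
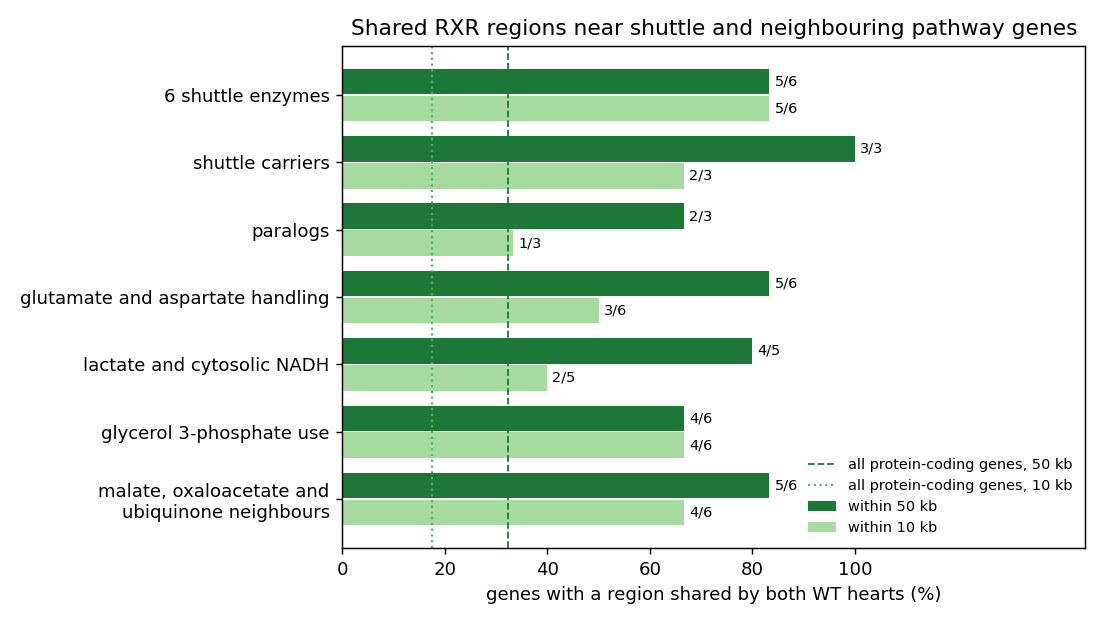
Share of genes (x axis, %) with a region shared by both WT hearts within 50 kb (dark bars) and within 10 kb (light bars) for the 6 shuttle enzymes and 6 lists of neighbouring genes, with the counts beside the bars and the shares of all protein-coding genes, 32.4% and 17.5%, as lines. The shuttle enzymes have 5 of 6 genes at both distances, while the lists together have 23 of 29 within 50 kb and 16 of 29 within 10 kb.

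At the edge of the 50 kb limit, the farthest peaks inside it were those of WT replicate 3 at 45.8 kb from Got2 (4.55) and 47.5 kb from Gpd1 (6.03). The nearest peaks beyond it were those of WT replicate 3 at 51.6 kb from Mdh2 (6.89, inside the cytochrome P450 reductase gene Por) and 53.6 kb from Got2 (5.34). The only edKO peak within 100 kb of any of the 6 genes was one of edKO replicate 4 inside Por (5.53), 90.0 kb from Mdh2, where WT replicate 3 had 39.6 and WT replicate 4 had 15.3.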

How the data were processed

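Per the labels and the series' design text, each newborn heart was fixed with DSG and formaldehyde (FA), chromatin of its nuclei was immunoprecipitated with an RXR antibody, and an input was sequenced too. Per the submitters' processing notes, cutadapt, BWA, SAMtools and MACS3 were used on build mm10 (GRCm38). No version, setting or removal of duplicates is given in the sources used here. Lists were deposited by the authors as 1 file per heart, with hearts not pooled. The deposited fold is the ratio of the summit to the local background of that heart. The deposited −log10 p and −log10 q were used as thresholds within a list.

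Summits were assigned to 21883 RefSeq protein-coding genes with Python 3.11.15, pandas 2.3.3 and SciPy 1.17.1. A region shared by the WT hearts had 1 peak per heart, overlapping by at least 1 bp, with the summit of WT replicate 3. Fragments were recovered by solving the fold (pseudocount of 1) and the Poisson tail together. This was done for all member and edKO peaks and 300 more of each WT list, drawn without the peaks of highest −log10 p. For each list a scale was chosen that gave the most whole numbers: 0.9918 in edKO replicate 3 and 0.9669 in WT replicate 4. With these fitted scales 100% gave whole numbers within 0.02, so the 100% is not a separate check. The labels name both paired and single-end reads, so a fragment may be a read pair or an extended read. Recovery and assignment were tested on simulated data. Hearts were compared, unpaired, by exact permutation tests, since the labels tie no litter or day to a number.

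Named genes were the 6 members, the genes nearest to their peaks, the peaks beside the 50 kb limit and the 2 genes of each list with the highest mean fold. The values of 1 gene that this rule names are not reported here. Camta2 and the distances of Slc25a11 were named after their values were seen. The members, the lists and the alternatives were chosen with earlier results of these data known. Exon positions and a genome sequence were not used here.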

Additional observations from a re-analysis of the deposited data

How the results depend on the processing

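Since the edKO counts were 0, the alternatives that narrow the distance, raise a threshold or leave out an edKO heart could not turn the direction. The differences of -9.5 peaks and -5.5 genes ranged from -13 to -6 and from -6 to -5 when 1 heart was left out, and from -15 to -6.5 and from -5.5 to -4.5 at 10 or 100 kb, with −log10 q of at least 5, with −log10 p of at least 10 or with the nearest gene only. With the replicate block the difference was -9.5 with an exact paired permutation p = 0.5, the smallest that 2 pairs allow. With a reciprocal overlap of at least 50%, 3 shuttle genes (in place of 5) and 3 regions (in place of 6) were shared, 50% of the WT replicate 4 peaks had a partner, and 15 of the 29 neighbouring genes had a region. Counting the nearest gene only gave 12 of these 29. At 100 kb all 6 shuttle genes, Mdh2 included, had a shared region, and the regions numbered 9. When the WT summits had to lie within 200 bp of each other, 5 genes and 5 regions were shared. Under that rule 83.3% of the WT replicate 4 peaks had a partner. The share of all protein-coding genes was not computed for the reciprocal overlap, the nearest gene, 100 kb or the summits within 200 bp. With WT replicate 3 or 4 left out, no region can be shared. The peaks of the remaining WT heart then numbered 6 or 13. The regions lost with the reciprocal overlap were those at Gpd1, Got2 and the near Got1 region, where the peaks were 1126, 805 and 678 bp wide in WT replicate 3 but 309, 280 and 200 bp in WT replicate 4. Got2 and the near Got1 region dropped out when −log10 q had to be at least 5 in both WT hearts, since it was 3.87 and 4.13 in WT replicate 4, though 22.4 and 9.25 in WT replicate 3. The part of depth in this was not tested.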
